A study of Mus musculus with 2 samples.

Results

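The S-phase neuroendocrine tumor cells described here were 738 of the 8330 cell barcodes of 2 mouse small cell lung cancers (SCLC), TKO1 and TKO2, profiled by single-cell RNA-seq. A cell belonged to them when it had more than 500 detected genes, fewer than 10 unique molecular identifiers (UMIs, each standing for 1 captured RNA molecule) of *Scgb1a1*, a club cell gene, and fewer than 5 UMIs summed over the 6 macrophage genes *Lyz2*, *C1qa*, *C1qb*, *C1qc*, *Tyrobp* and *Fcer1g*. It also had to hold at least 3 UMIs summed over 6 S-phase genes, *Clspn*, *Ccne2*, *Tcf19*, *Asf1b*, *Pcna* and *Rrm2*, and at most 1 UMI summed over 8 mitosis genes, *Ube2c*, *Birc5*, *Cenpa*, *Cenpf*, *Ccnb1*, *Ccnb2*, *Cdc20* and *Nusap1*. Barcodes that passed the limits on detected genes, *Scgb1a1* and macrophage genes are called tumor cells. The rule found 323 of 3005 tumor cells in TKO1 (10.7%, exact Clopper-Pearson 95% interval 9.66 to 11.9) and 415 of 3466 in TKO2 (11.97%, 10.9 to 13.1). They were set against comparison cells, the tumor cells with 0 UMIs of both gene sets, of which there were 1379 in TKO1 and 585 in TKO2.

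Both tumors had the genotype Rb-/-; Trp53-/-; Rbl2-/- (the triple knockout, TKO), with a Rosa26 membrane-Tomato or membrane-GFP reporter, on a background that mixed the strains 129/SvOla, 129/SVJ and C57BL/6. Tumors were induced with Adeno-CMV-Cre, an adenovirus in which a broadly active viral promoter drives the recombinase, so that Cre expression is not limited to 1 lung cell type. One tumor was taken from each mouse 7 months after induction, at an age of 8 to 9 months, and its sorted live cells gave 1 library on the 10x Chromium platform. The 2 tumors shared genotype, induction and time, and no second library of either tumor and no untreated tissue were analysed here. A gene's counts pool all of its exons, so the deletions could not be checked with them. In the S-phase cells, *Rb1* had 61 UMIs in TKO1 and 13 in TKO2. *Trp53* had 47 and 74 UMIs, and *Rbl2* had 7 UMIs in TKO1 and 1 UMI in TKO2.

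S phase is the part of the cell cycle in which the genome is copied. In G1, transcription factors of the E2F family are held in check by RB1 and its relatives RBL1 and RBL2, and cyclin-dependent kinases with cyclin E release E2F, which turns on the genes of origin licensing, the replication fork, nucleotide synthesis and histone supply. RB1 is lost in nearly all SCLC, a fast-growing tumor of cells with neuroendocrine features, and 2 of the 3 RB family genes are deleted in this model. After S phase, a second wave of genes for chromosome condensation, the spindle and mitotic exit follows.

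The cells were cut by RNA counts, so the level of the gate genes in them is a description of the rule. The median S-phase cell held 4 UMIs of the 6 S-phase genes in either tumor, with a maximum of 19 in TKO1 and 18 in TKO2. *Pcna*, the sliding clamp that holds polymerases on DNA, was seen in 87.9% of the S-phase cells of TKO1 and 92.8% of those of TKO2, and in both tumors it was the gate gene seen most often. *Ccne2*, cyclin E2, was seen in 64.1% and 55.7%. *Rrm2*, the small subunit of ribonucleotide reductase, differed most between the tumors in percentage points, at 27.2% in TKO1 and 54.7% in TKO2. *Asf1b*, a histone chaperone, was seen in 32.8% and 16.6%, *Tcf19* in 25.4% and 18.6%, and *Clspn*, which links the fork to the checkpoint kinase, in 24.8% and 12.3%. In 39 S-phase cells of TKO1 and 45 of TKO2 all of the S-phase UMIs came from 1 gene, and 154 and 188 cells showed 3 or more of the 6 genes. Of the 8 mitosis genes, 275 S-phase cells of each tumor held 0 UMIs, and 48 of TKO1 and 140 of TKO2 held 1.

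Many cells lay near the limit of 3 S-phase UMIs. Among cells with at most 1 mitosis UMI, 134 cells of TKO1 and 138 of TKO2 had exactly 3 S-phase UMIs, 41.5% and 33.3% of the class, whereas 241 and 279 cells had 2 and were left out. The 60 genes of a DNA replication list (origin, helicase and fork genes, with none from the gate) summed to 5242 UMIs per 1000000 UMIs of the class (CPM, used throughout for UMIs summed over the cells of a class) in cells with 3 S-phase UMIs of TKO1 and to 4621 CPM in cells with 2. In TKO2 the sums were 6026 and 5461 CPM. The S-phase cells also held more RNA counts, with a median of 1562 UMIs against 1076 in the comparison cells of TKO1 and 2145 against 1392 in TKO2, and a deeper cell passes a limit of 3 UMIs more easily. When every tumor cell was thinned to 1000 UMIs, the S-phase share was 7.17% (6.12 to 8.34) of 2161 cells in TKO1 and 8.10% (7.16 to 9.12) of 3086 in TKO2, with 844 and 380 shallower cells left out.

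The S-phase shares of the tumors had counting intervals that overlapped, and with all UMIs those of the other classes did not. Mitotic-gate cells, with at least 3 mitosis UMIs and at most 1 S-phase UMI, made up 5.99% (5.17 to 6.90) of the tumor cells of TKO1 and 15.9% (14.7 to 17.2) of those of TKO2. Cells over both gates, with at least 3 S-phase and more than 1 mitosis UMI, were 4.23% (3.54 to 5.01) and 21.9% (20.5 to 23.3), and at 1000 UMIs per cell 2.45% (1.84 to 3.20) and 5.35% (4.58 to 6.20). Comparison cells were 45.9% (44.1 to 47.7) of TKO1 and 16.9% (15.6 to 18.2) of TKO2, and at equal depth 48.6% (46.5 to 50.8) and 24.98% (23.5 to 26.6). Cells with 1 or 2 S-phase UMIs were 25.9% (24.4 to 27.5) and 21.03% (19.7 to 22.4), and at equal depth 27.2% (25.3 to 29.1) and 25.7% (24.1 to 27.2), where the intervals overlapped. With 1 library per tumor, these differences compare 2 libraries and cannot be told apart from differences in dissociation or capture.

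**Figure D1:**
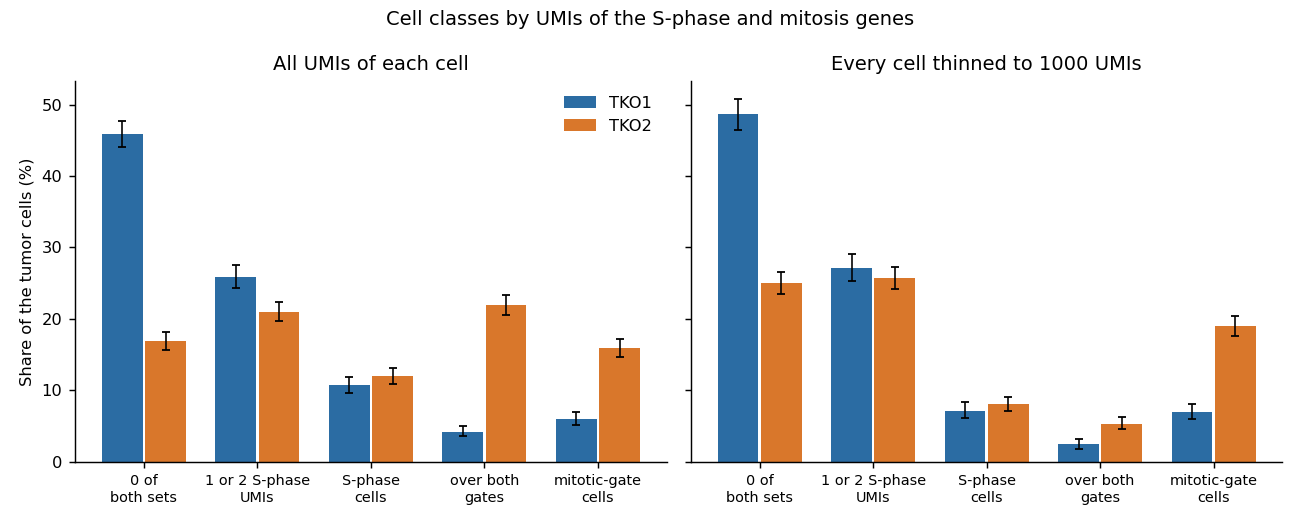
Share of tumor cells (%, vertical axis, bars from 0) in 5 classes set by UMIs of the S-phase and mitosis genes, for TKO1 (blue) and TKO2 (orange), with all UMIs (left) and after thinning each cell to 1000 UMIs (right). Error bars are exact 95% binomial intervals, which cover counting error only. The bars of the S-phase cells stand close together in both panels, at 10.7% and 11.97% and at 7.17% and 8.10%, while those of the mitotic-gate cells and of the cells over both gates are higher in TKO2 and those of the remaining classes lower.

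Each gate gene was then measured in cells that it had not helped to choose, by asking for 3 UMIs of the other 5 genes and comparing with cells that held 0 UMIs of those 5 and of the mitosis genes. All 6 genes were higher in the cells so chosen, in both tumors. The ratio of 2 classes has an exact conditional 95% interval for counting error only. *Asf1b* had 214 CPM against 16.1 CPM in TKO1, a log2 ratio of 3.74 (3.12 to 4.40), and 70.2 against 14.2 CPM in TKO2, a log2 ratio of 2.30 (1.43 to 3.28). *Pcna* had the smallest log2 ratio, at 2.00 (1.79 to 2.21) in TKO1 and 1.43 (1.23 to 1.63) in TKO2, and was also the most abundant of the 6 where it was not used, at 250 and 315 CPM in the cells with 0 UMIs of the other 5. *Ccne2* was close to it in TKO2, with log2 ratios of 2.27 (1.97 to 2.57) in TKO1 and 1.44 (1.09 to 1.80) in TKO2. *Clspn*, *Tcf19* and *Rrm2* had log2 ratios of 3.45, 3.44 and 3.67 in TKO1 and of 2.99, 1.73 and 2.36 in TKO2.

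Across the transcriptome, most genes differed little between S-phase and comparison cells. Of 6470 genes with at least 20 CPM over the tumor cells of TKO1, gate genes left out, 323 were at least 2-fold higher in the S-phase cells (4.99% of the genes measured) and 218 at least 2-fold lower (3.37%). In TKO2 the numbers were 203 of 5435 (3.74%) and 83 (1.53%). The numbers of higher genes depended on the cells compared and on the minimum. Against all other tumor cells, which include those in mitosis and those with 1 or 2 S-phase UMIs, 114 genes were at least 2-fold higher in TKO1 and 6 in TKO2, and against comparison cells 853 and 691 were with a minimum of 5 CPM and 132 and 56 with 50 CPM. By any size, 50.3% of the genes measured were higher in the S-phase cells of TKO1 and 55% in those of TKO2, beside 40 of 43 and 48 of 50 replication genes. The median log2 ratio over all genes measured was 0.00 in TKO1 and 0.05 in TKO2. These values are the background for the gene lists below. The minimum was taken over tumor cells that include the S-phase and mitotic-gate cells, so genes high in them pass it more easily. The counts of higher genes in the lists only describe the genes that passed. Of 4898 genes measured in both tumors, 69 were at least 2-fold higher in both, 27.0% of the 256 such genes of TKO1 and 51.5% of the 134 of TKO2. Because the cells were chosen by counts of the same libraries, and each tumor is 1 library, no test was run, and the ratios and lists are descriptions.

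**Figure D2:**
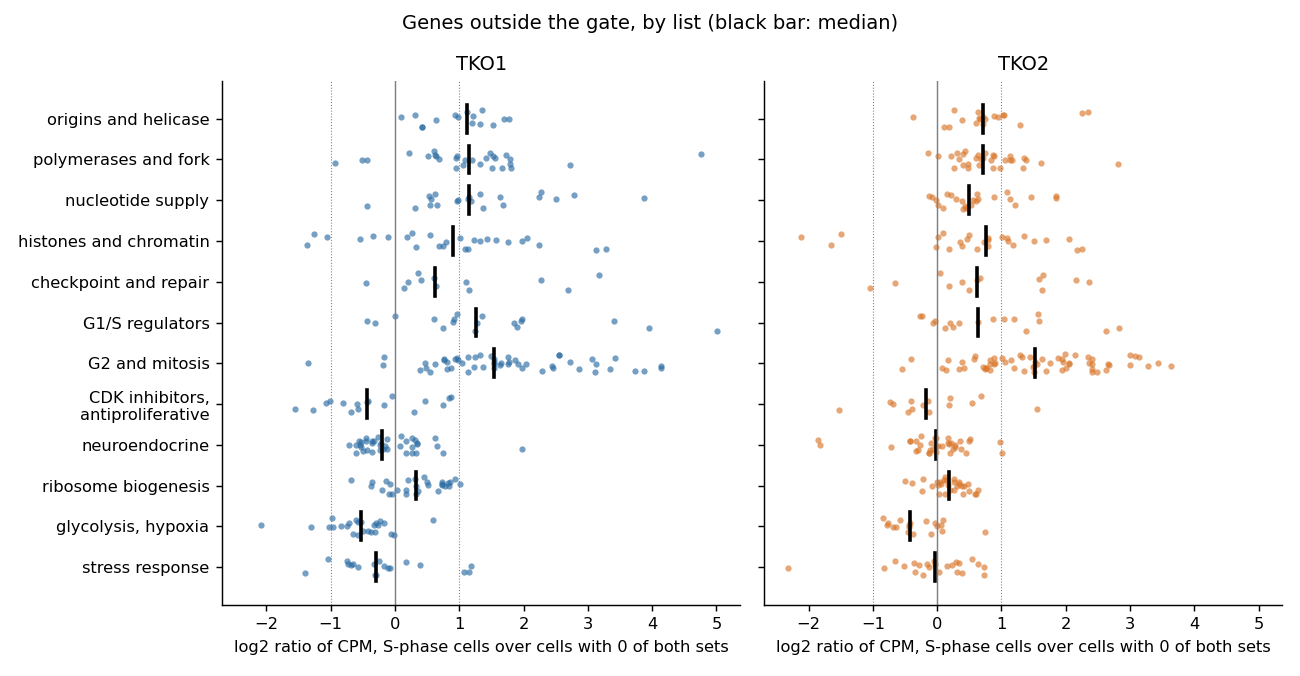
Log2 ratio of CPM (horizontal axis) between S-phase cells and comparison cells for each gene of 12 lists with at least 20 CPM, TKO1 left and TKO2 right; each point is a gene, the black bar is the list's median, and dotted lines mark 2-fold. The medians of the replication, nucleotide, chromatin, checkpoint and G1/S lists lie to the right of 0 in both tumors, and those of the neuroendocrine genes at -0.20 and -0.02.

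Regulators of the G1/S transition were among the genes with the largest ratios. *Ccne1* (chromosome 7, 38097984 to 38107534, GRCm38), which encodes cyclin E1, the partner of CDK2 at S-phase entry, had 131 CPM (103 to 164) in the S-phase cells and 8.46 CPM (4.63 to 14.2) in the comparison cells of TKO1. In TKO2 it had 77.8 CPM (61.5 to 97.1) and 25.9 CPM (16.4 to 38.9). The log2 ratios were 3.95 (3.11 to 4.89) and 1.59 (0.90 to 2.32), and the mitotic-gate cells held less than the S-phase cells, at 13.6 and 8.29 CPM. *E2f1*, an activating E2F that is itself an E2F target, had 120 against 33.2 CPM in TKO1 and 126 against 48.4 CPM in TKO2, with log2 ratios of 1.85 (1.32 to 2.39) and 1.37 (0.87 to 1.91). In mitotic-gate cells *E2f1* was at 6.81 and 32.3 CPM. *Cdk2* had log2 ratios of 1.89 (1.32 to 2.47) and 1.58 (0.94 to 2.25), while *Cdk4*, the kinase of early G1, was at 547 against 281 CPM in TKO1 and 893 against 707 CPM in TKO2, ratios of 0.96 and 0.34. *Fbxo5*, an inhibitor of the anaphase-promoting complex, was among the genes with the largest ratio in both tumors, at 3.41 (2.42 to 4.52) and 2.82 (1.91 to 3.88). *Ccna2*, the cyclin A2 that acts from S phase to mitosis, had 22 UMIs in S-phase cells and 2 in comparison cells of TKO1, a ratio of 5.01 (2.98 to 8.14), and 35 and 5 UMIs in TKO2, a ratio of 2.63 (1.27 to 4.34). Of the 32 genes of the list, 18 were measured in TKO1 and 10 were at least 2-fold higher, and 7 of 17 were in TKO2. *Ccne1*, at 8.46 CPM in the comparison cells of TKO1, passed the minimum of 20 CPM only through other cells, so nothing is read from these counts. The list's medians were 1.25 and 0.63, and against all other tumor cells 0.70 and 0.26. None of those measured was at least 2-fold lower, and *E2f4*, a repressive E2F, had ratios of -0.32 (-1.43 to 0.67) and 0.25 (-0.44 to 0.96).

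Origin licensing genes and the replicative helicase were higher in the S-phase cells, by less in TKO2. *Cdc6*, which loads the helicase at origins, had 30 UMIs (52.9 CPM) in the S-phase cells of TKO1 and 4 (2.42 CPM) in the comparison cells, and 46 UMIs (45.9 CPM) and 8 (9.01 CPM) in TKO2. Its log2 ratios were 4.45 (2.95 to 6.42) in TKO1, where the gene fell under the 20 CPM minimum over all tumor cells, and 2.35 (1.25 to 3.64) in TKO2. *Mcm3*, a helicase subunit, had 169 against 52.6 CPM in TKO1 and 152 against 90.1 CPM in TKO2, ratios of 1.69 (1.25 to 2.12) and 0.75 (0.35 to 1.16). *Mcm5* had ratios of 1.35 (0.77 to 1.93) and 0.66 (0.18 to 1.16), and *Mcm2* of 0.98 (0.64 to 1.32) and 0.26 (-0.02 to 0.55). *Gins2*, part of the active helicase, had ratios of 1.77 (1.22 to 2.33) and 0.72 (0.32 to 1.13). The origin recognition subunits *Orc2* and *Orc4* had intervals that held 0 in both tumors. Over the list, 8 of 15 genes measured were at least 2-fold higher in TKO1 and 5 of 19 in TKO2, with medians of 1.12 and 0.72.

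At the fork itself the gene with the largest ratio in both tumors was *Pclaf* (*2810417H13Rik* in the files; chromosome 9, 65890237 to 65903266), which encodes a small protein bound to PCNA. It had 559 CPM in the S-phase cells and 20.5 CPM in the comparison cells of TKO1, from 317 and 34 UMIs, and 398 and 56.3 CPM in TKO2, from 399 and 50 UMIs. The log2 ratios were 4.77 (4.25 to 5.32) and 2.82 (2.39 to 3.27), and cells over both gates held still more, at 867 and 822 CPM. The clamp loader genes *Rfc3* and *Rfc4* had ratios of 1.56 and 1.503 in TKO1 and of 1.17 and 1.05 in TKO2. *Fen1*, the flap nuclease of lagging-strand synthesis, had ratios of 1.72 (0.98 to 2.47) and 1.39 (0.90 to 1.90), and *Dna2* of 2.72 (1.91 to 3.59) and 1.13 (0.29 to 2.03). *Lig1*, which seals the fragments, had 187 against 54.4 CPM in TKO1, a ratio of 1.78, and 78.8 against 43.9 CPM in TKO2, a ratio of 0.84. In all, 16 of 28 fork genes measured were at least 2-fold higher in TKO1 and 9 of 31 in TKO2. Not all members of the list went that way. *Pold4*, a small subunit of polymerase delta, had 28.2 CPM in S-phase cells against 53.8 CPM in comparison cells of TKO1, a ratio of -0.93 (-1.80 to -0.15), and 6 against 28 UMIs in TKO2, where it was under the minimum. *Top1* had a ratio of -0.51 (-0.91 to -0.12) in TKO1 and 0.27 (-0.05 to 0.59) in TKO2.

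Nucleotide supply genes were also higher, by much more in TKO1 than in TKO2 for several of them. *Tk1*, thymidine kinase, had 88.2 CPM in S-phase cells against 6.04 CPM in comparison cells of TKO1, a log2 ratio of 3.87 (2.87 to 5.01), and 76.8 against 21.4 CPM in TKO2, a ratio of 1.84 (1.10 to 2.65). *Tyms*, thymidylate synthase, had 342 against 60.4 CPM in TKO1 and 235 against 107 CPM in TKO2, ratios of 2.50 (2.15 to 2.86) and 1.14 (0.79 to 1.496). *Rrm1*, the large subunit of ribonucleotide reductase, had ratios of 2.24 (1.73 to 2.77) and 1.46 (0.92 to 2.03). For *Tk1* and *Tyms*, the S-phase levels of the tumors were closer to each other, as a ratio, than the comparison levels were. *Gart* and *Gmps*, of new purine synthesis, had intervals that held 0 in both tumors. The ratios were 0.55 (-0.10 to 1.17) and 0.41 (-0.19 to 1.02) for *Gart* and 0.31 (-0.11 to 0.71) and 0.09 (-0.26 to 0.45) for *Gmps*. Over the list, 12 of 21 genes measured were at least 2-fold higher in TKO1 and 6 of 24 in TKO2, with medians of 1.15 and 0.49, and against all other tumor cells of 0.91 and 0.24. *Tk1*, at 6.04 CPM in the comparison cells of TKO1, passed the minimum only through other cells, so nothing is read from the counts of higher genes.

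Chromatin assembly genes were higher in the S-phase cells, but several histone transcripts were lower. *Chaf1a* and *Chaf1b*, 2 subunits of the CAF-1 complex that places histones on new DNA, had log2 ratios of 3.13 (2.16 to 4.21) and 1.97 (1.58 to 2.37) in TKO1 and of 2.17 (1.22 to 3.25) and 1.51 (0.81 to 2.28) in TKO2. *Uhrf1*, which brings the DNA methyltransferase to newly copied DNA, had 40 and 12 UMIs (70.6 and 7.25 CPM) in TKO1 and 43 and 8 (42.9 and 9.01 CPM) in TKO2, ratios of 3.28 (2.32 to 4.35) and 2.25 (1.14 to 3.55). *Dnmt1* itself had ratios of 1.01 (0.68 to 1.33) and 1.09 (0.60 to 1.60). *Hells*, a chromatin remodeler, had 2.25 (1.81 to 2.69) and 1.18 (0.82 to 1.56), and *Slbp*, which binds the stem-loop of replication-dependent histone mRNA, 1.43 (0.98 to 1.88) and 0.47 (-0.30 to 1.25). Of 26 list genes measured in either tumor, 13 were at least 2-fold higher in TKO1 and 10 in TKO2. The medians were 0.90 and 0.76, and against all other tumor cells 0.44 and 0.15.

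In both tumors the 3 list genes at least 2-fold lower were the histone genes *Hist1h1c*, *Hist1h4i* and *Hist1h2bc*. *Hist1h2bc* had 97.0 CPM in the S-phase cells, 203 CPM in the comparison cells and 2790 CPM in the mitotic-gate cells of TKO1. In TKO2 it had 52.8, 230 and 410.5 CPM. The log2 ratios of S-phase to comparison cells were -1.07 (-1.504 to -0.65) and -2.12 (-2.58 to -1.68), so the S-phase cells were the lowest of these classes in both tumors. *Hist1h1c*, a linker histone, had 74.1, 192 and 947 CPM in TKO1 and 14.0, 43.9 and 68.8 CPM in TKO2, with ratios of -1.37 (-1.87 to -0.90) and -1.65 (-2.65 to -0.74). *Hist1h4i* rested on 3 and 21 UMIs in TKO1 and on 6 and 15 in TKO2. Outside the list, *Hist3h2ba* had 402 CPM in S-phase cells and 832 CPM in comparison cells of TKO1 and 279 and 529 CPM in TKO2, and *Hist3h2a* had ratios of -1.24 (-1.60 to -0.91) and -0.91 (-1.19 to -0.63). Libraries of this kind start from poly(A) tails, which most replication-dependent histone mRNAs lack, so the counts of a histone gene cover only its polyadenylated transcripts. The histone genes of the list did not all go one way. *Hist1h1b*, a linker histone gene, had 4 and 5 UMIs in S-phase and comparison cells of TKO1, a ratio of 1.22 (-1.11 to 3.44), and 11 and 0 UMIs in TKO2, a log2 ratio of at least 1.70 against 3 counts. *Hist1h2ae* had ratios of -0.54 (-2.57 to 1.07) and 2.05 (0.75 to 3.61). Histone genes of 1 cluster are close copies, and how reads were divided among them is uncertain. The variant histone gene *H2afz*, which is polyadenylated, was higher in the S-phase cells, at 1267 against 597 CPM in TKO1 and 1447 against 942 CPM in TKO2, ratios of 1.09 (0.94 to 1.23) and 0.62 (0.50 to 0.74).

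Checkpoint and repair genes were sparse, with 12 and 13 of 35 over the minimum. *Dtl*, the receptor of a ubiquitin ligase that removes CDT1 during S phase, had 113 against 17.5 CPM in TKO1 and 194 against 62.0 CPM in TKO2, log2 ratios of 2.69 (2.03 to 3.37) and 1.65 (1.21 to 2.11). *Msh6*, of mismatch repair, had ratios of 1.11 (0.35 to 1.85) and 1.59 (0.54 to 2.77). At least 2-fold higher were 5 genes in each tumor. *Brca2* was among the genes whose ratio differed most between the tumors, with 33 UMIs in S-phase and 20 in comparison cells of TKO1, a ratio of 2.27 (1.42 to 3.15), and 11 and 20 UMIs in TKO2, a ratio of -1.04 (-2.25 to 0.09). *Ung*, which removes uracil from DNA, had ratios of 0.60 (0.10 to 1.09) and 0.63 (0.35 to 0.90). The list's medians were 0.62 and 0.63, and against all other tumor cells 0.59 and 0.26.

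Many replication genes are known E2F targets, and their promoters were searched for short words of the E2F type. The search used the 4 words TTGGCGC (first), TTGCCGC (second), TTCGCGC (next) and TTCCCGC (last) on both strands, chosen after a longer version had been looked at, in RefSeq windows (GRCm38.p6) from 250 bases before to 50 bases after a start site. A word was found for 31 of 49 replication genes with a window (63.3%), for 14 of 27 checkpoint and repair genes (51.9%) and for 13 of 29 chromatin genes (44.8%). It was found for 4 of 32 neuroendocrine genes (12.5%), 15 of 57 G2 and mitosis genes (26.3%), 10.9% of 27025 genes in all and 21.9% of 5458 genes measured in either tumor. Of the genes at least 2-fold higher in both tumors, 25 of 52 with a window held a word (48.1%). A word is a match of letters and does not show binding, and no word was found in the windows of *Ccne1* and *E2f1*. The window of *E2f1*, chr2:154569377-154569676 (minus strand), lies inside the gene interval used for positions, 154559407 to 154569892. Sequence upstream of that interval was not searched for *E2f1*. Stretches around the words are shown for 5 genes whose levels are given above, 5′ to 3′ on the strand of the gene and with the words in capitals. They lie at chr9:65890303-65890324 (plus strand) for *Pclaf*, chr1:191575543-191575668 (minus strand) for *Dtl*, chr17:56303274-56303310 (plus strand) for *Uhrf1*, chr11:98907998-98908034 (plus strand) for *Cdc6* and chr8:75109330-75109381 (plus strand) for *Mcm5*. Counted from the RefSeq start site, the stretches of *Pclaf* and *Dtl* take in the first 2 bases of the transcript and the others end upstream of it. The gene interval given above for *Pclaf* begins further upstream and holds its stretch.
Pclaf: aagcgcttggagcgcGCGGGAA
Dtl: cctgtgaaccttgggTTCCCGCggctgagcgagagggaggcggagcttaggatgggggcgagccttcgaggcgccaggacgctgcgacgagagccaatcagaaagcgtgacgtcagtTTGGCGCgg
Uhrf1: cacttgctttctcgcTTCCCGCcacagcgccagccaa
Cdc6: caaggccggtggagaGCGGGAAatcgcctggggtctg
Mcm5: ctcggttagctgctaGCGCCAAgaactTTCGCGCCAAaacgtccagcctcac
In *Pclaf* and *Cdc6* the word is the last of the 4 read from the other strand. In *Mcm5* the capitals of the longer run are 2 words that overlap, 1 from each strand.

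*Pclaf* was higher at each step as S-phase UMIs were added, below and above the limit of 3. In cells with at most 1 mitosis UMI of TKO1, *Pclaf* went from 20.5 CPM at 0 S-phase UMIs through 89.6, 197, 291 and 513 CPM at 1 to 4 UMIs to 844 CPM at 5 or more. In TKO2 the same steps read 63.1, 100, 155, 279, 302 and 527 CPM. *Ccne1* went from 11.3 to 177 CPM in TKO1 and from 24.1 to 100 CPM in TKO2 between the first and last step. *E2f1* did not follow the steps evenly, at 121, 86.5, 124 and 150 CPM with 2, 3, 4 and 5 or more S-phase UMIs in TKO1 and at 101, 119, 136 and 124 CPM in TKO2. *Hist1h2bc* read 232, 119, 118, 164, 132 and 13.3 CPM in TKO1, the last from 3 UMIs, and 304, 126, 103, 49.7, 82.7 and 39.2 CPM in TKO2. The summed replication list went from 2855 to 7541 CPM and from 4148 to 7423 CPM.

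**Figure D3:**
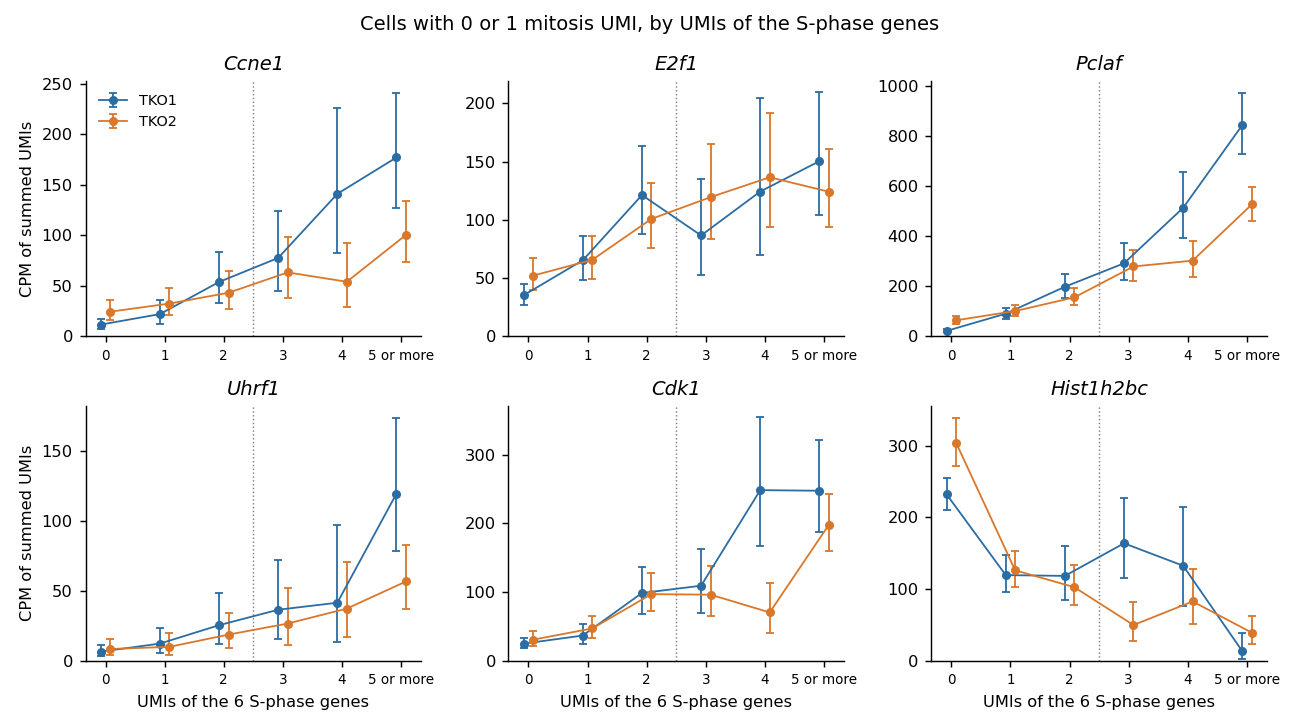
CPM of summed UMIs (vertical axis, from 0) for 6 genes outside the gate in cells with 0 or 1 mitosis UMI, by UMIs of the 6 S-phase genes (horizontal axis), TKO1 blue and TKO2 orange; bars are exact 95% Poisson intervals and the dotted line marks the limit of 3 UMIs. *Pclaf* goes from 20.5 to 844 CPM in TKO1 and from 63.1 to 527 CPM in TKO2, and *Hist1h2bc* is at 232 and 304 CPM at the first step and at 13.3 and 39.2 CPM at the last, with uneven steps between.

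Among genes of G2 and mitosis outside the gate, *Top2a* and *Cdk1* had levels between those of the comparison cells and the mitotic-gate cells. Since comparison cells were chosen to hold no mitosis UMI and S-phase cells could hold 1, part of this order is built into the rule. *Top2a*, the topoisomerase that separates copied chromosomes, had 134 CPM in S-phase cells, 24.8 CPM in comparison cells and 712 CPM in mitotic-gate cells of TKO1. In TKO2 the levels were 122, 11.3 and 331 CPM. *Cdk1*, the mitotic kinase, had 194, 22.4 and 487 CPM in TKO1 and 137, 21.4 and 518 CPM in TKO2, with log2 ratios to comparison cells of 3.12 (2.57 to 3.70) and 2.67 (1.98 to 3.45). *Pbk*, a mitotic kinase, had ratios of 4.13 (3.36 to 4.99) and 2.67 (1.43 to 4.19), and *Mki67*, the proliferation marker, of 3.07 (2.19 to 4.02) and, from 11 and 1 UMIs, 3.28 (0.50 to 8.71). *Plk1* and *Hmmr*, which act in mitosis itself, were nearly absent from the S-phase cells, with 1 and 3 UMIs in TKO1 and 6 and 7 in TKO2. In comparison cells they had 2 and 1 UMIs in TKO1 and 1 and 2 in TKO2, so that *Hmmr*, with ratios of 3.13 (-0.51 to 8.84) and 1.63 (-0.76 to 4.93), is counted among the genes at least 2-fold higher in both tumors. *Pttg1*, securin, was lower than in comparison cells in TKO1, at 12.4 against 31.4 CPM, and had 923 CPM in mitotic-gate cells. In TKO2, 0 of 63 genes measured on the list were at least 2-fold lower than in comparison cells, and the lowest log2 ratio was -0.54. Over the list, 37 of 53 genes measured were at least 2-fold higher than in comparison cells in TKO1 and 42 of 63 in TKO2. Against mitotic-gate cells, 47 and 51 were at least 2-fold lower, beside 5.89% of all genes in TKO1 and 2.94% in TKO2. The mitotic-gate cells are among the tumor cells over which the minimum of 20 CPM was taken, so genes high in them pass it more easily, and nothing is read from these counts.

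All cells with at least 3 S-phase UMIs were also split into steps by mitosis UMIs, and the S-phase cells as defined here are the first steps, 0 and 1. The steps were not shown to be an order in time. Cells over both gates were deeper, with medians of 2146 UMIs against 1562 in TKO1 and 3044 against 2145 in TKO2. Doublets among them were not tested for. *Ccne1* was at 123 and 171 CPM in these steps of TKO1 and at 57.1 CPM with 10 or more mitosis UMIs, and at 76.0, 80.6 and 20.7 CPM in TKO2. *E2f1* was at 129 CPM with 0 and 17.1 CPM with 10 or more mitosis UMIs in TKO1, where the last value rests on 3 UMIs, and at 129 and 73.9 CPM in TKO2. *Top2a* ran from 125 to 1296 CPM in TKO1 and from 82.5 to 386 CPM in TKO2. *Pclaf* was highest between these ends in TKO2, at 958 CPM with 3 to 9 mitosis UMIs against 315 CPM with 0 and 689 CPM with 10 or more. In TKO1 *Pclaf* read 541, 661, 843, 740 and 930 CPM with 0, 1, 2, 3 to 9 and 10 or more mitosis UMIs, highest at the last step. With 16 cells at 2 and 36 cells at 3 to 9 mitosis UMIs, the middle steps of TKO1 were too thinly filled to place a peak. *Hist1h2bc* stayed at 102 and 68.4 CPM in the first 2 steps of TKO1 and reached 1347 CPM in the last, and went from 59.9 to 210 CPM in TKO2.

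**Figure D4:**
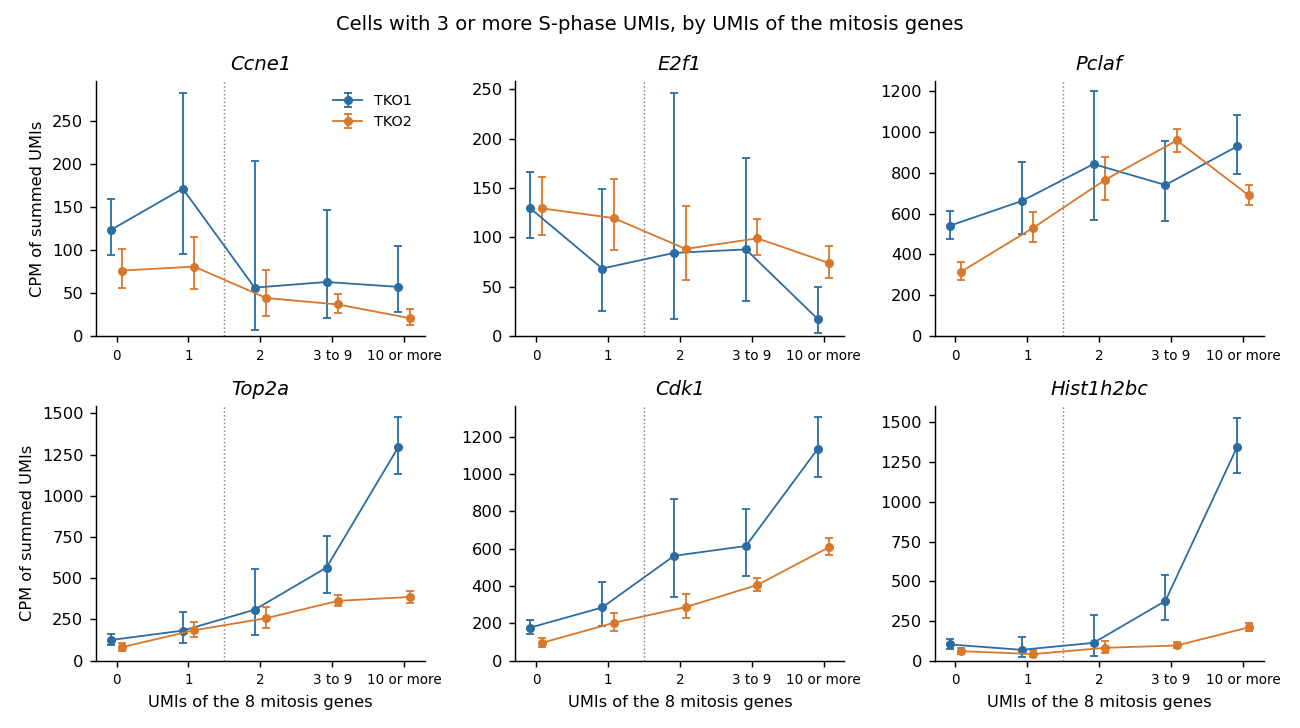
CPM of summed UMIs (vertical axis, from 0) for 6 genes in cells with 3 or more S-phase UMIs, by UMIs of the 8 mitosis genes (horizontal axis), TKO1 blue and TKO2 orange; bars are exact 95% Poisson intervals, and the S-phase cells lie left of the dotted line. *Ccne1* goes from 123 to 57.1 CPM and from 76.0 to 20.7 CPM between the ends, and *Top2a* from 125 to 1296 CPM and from 82.5 to 386 CPM.

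S-phase cells differed among themselves. After thinning to 1000 UMIs, which 292 S-phase cells of TKO1 and 393 of TKO2 reached, a cell held a median of 6 UMIs of the 60 replication genes in TKO1, from 0 to 17, and of 7 in TKO2, from 0 to 22. The medians of the comparison cells were 3 and 4. Of the 70 genes of G2 and mitosis, S-phase cells held a median of 12 UMIs in TKO1, from 1 to 33, and of 10 in TKO2, from 0 to 36. The medians of the comparison cells were 4 and 6. *Stmn1* alone gave 4750 of the list's 11831 CPM in S-phase cells of TKO1 and 3078 of 11432 CPM in TKO2. In comparison cells it had 1998 and 2075 CPM. The variance of the G2 and mitosis count was 2.98 and 2.99 times its mean, against 1.61 and 1.57 times for the replication genes. Across the S-phase cells of 1 library, all at the same depth, Pearson's r between the G2 and mitosis count and that of 16 early S-phase genes was 0.19 in TKO1 and 0.15 in TKO2, a weak relation in sparse counts.

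The S-phase cells carried many of the neuroendocrine genes that give them their name, and most of those measured were within 2-fold of the comparison cells. *Chga*, chromogranin A of the secretory granule, had 836 CPM (763 to 915) in S-phase cells and 1003 CPM in comparison cells of TKO1, and 116 CPM and 142 CPM in TKO2, with log2 ratios of -0.26 (-0.41 to -0.11) and -0.30 (-0.67 to 0.08). In the 78 macrophage-gate cells of TKO1 it had 102 CPM and in the 88 of TKO2 6.48 CPM, a measure of how much RNA of tumor cells is caught with other cells. For other genes this background was nearer to the level in S-phase cells of TKO1. *Insm1* had 127 CPM in S-phase and 59.7 CPM in macrophage-gate cells of TKO1, and 106 CPM and 0 UMIs in TKO2, and *Syp* had 17.6 and 17.05 CPM in TKO1. The ratios of *Insm1* to comparison cells were 0.09 (-0.32 to 0.48) and -0.02 (-0.43 to 0.40), and those of *Uchl1* 0.33 (0.07 to 0.59) and -0.03 (-0.21 to 0.15). *Hes6* was higher in S-phase cells of TKO1, at 801 against 522 CPM, a ratio of 0.62 (0.45 to 0.78), and not in TKO2, at 1051 against 1069 CPM. Of 44 genes, 38 were measured in TKO1 with a median of -0.20 and 36 in TKO2 with a median of -0.02, and the other 6 and 8 were under the minimum. In the S-phase cells *Isl1* had 0 UMIs in both tumors, and *Stmn2* and *Neurod1* had 0 in TKO1. The gene at least 2-fold higher in each tumor was *Nefl*, a neurofilament gene, with 31 and 23 UMIs in TKO1, a ratio of 1.98 (1.15 to 2.82), and 25 and 11 UMIs in TKO2, a ratio of 1.01 (-0.07 to 2.18).

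*Calca* and *Resp18* were the neuroendocrine genes at least 2-fold lower in the S-phase cells of TKO2, 2 of 36 measured, and 0 of 38 were in TKO1. Over the list, 14 intervals lay below 0 and 4 above in TKO1, and 4 below and 6 above in TKO2, beside 753 below and 992 above of all 6470 genes measured in TKO1 and 461 below and 677 above of 5435 in TKO2. *Calca*, which encodes calcitonin and CGRP, had 14719 CPM in S-phase cells and 20135 CPM in comparison cells of TKO1, a log2 ratio of -0.45 (-0.49 to -0.42). In TKO2, where it was far less abundant, it had 60.8 and 221 CPM, a ratio of -1.86 (-2.30 to -1.44) that was -1.001 when the comparison cells were weighted to the depth of the S-phase cells. *Resp18*, a granule protein, had 1440 and 2372 CPM in TKO1, a ratio of -0.72 (-0.83 to -0.61), and 22.9 and 81.1 CPM in TKO2, a ratio of -1.82 (-2.57 to -1.13) that was -0.96 with the same weighting. The granule genes *Chgb* and *Cpe* had ratios of -0.50 and -0.55 in TKO1 and of -0.32 in TKO2 for both, with weighted values in TKO2 of 0.07 and -0.09. Mitotic-gate cells had still less *Calca* and *Resp18*, at 5383 and 865 CPM in TKO1 and 40.6 and 13.3 CPM in TKO2.

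The MYC family gene of each tumor differed. In TKO1, *Mycl* (chromosome 4, 122995652 to 123002485) had 279 CPM in S-phase cells, 84.0 CPM in comparison cells and 514 CPM in mitotic-gate cells, a log2 ratio of S-phase to comparison cells of 1.73 (1.39 to 2.07). Much of the level in S-phase cells lay in few cells. In all, 19 of 323 S-phase cells (5.88%, 3.58 to 9.03) and 11 of 1379 comparison cells (0.798%, 0.399 to 1.42) held 3 or more *Mycl* UMIs. Without them the levels were 102 and 59.8 CPM, a ratio of 0.78. Leaving out cells by their own *Mycl* UMIs takes more from the class that has more such cells, and S-phase cells were deeper. The ratio of 0.78 is therefore a description only. In TKO2, *Mycl* was at 28.9 and 40.6 CPM, and *Mycn* took its place with 2382 CPM in S-phase cells, 2432 CPM in comparison cells and 3320 CPM in mitotic-gate cells, a ratio of -0.03 (-0.11 to 0.05). *Mxd3*, a partner of MAX, was the gene of this network higher in both tumors, with 21 and 5 UMIs in TKO1, a ratio of 3.62 (2.17 to 5.38), and 35 and 5 UMIs in TKO2, a ratio of 2.63 (1.27 to 4.34).

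Antiproliferative genes and CDK inhibitors went both ways, with list medians of -0.44 in TKO1 and -0.18 in TKO2. With depth weighting the medians were -0.50 and 0.055. Intervals lay below 0 for 8 genes and above 0 for 4 in TKO1, and for 3 and 3 in TKO2. Of all genes measured, 753 lay below and 992 above of 6470 in TKO1, and 461 and 677 of 5435 in TKO2. *Btg2*, an antiproliferative gene, was lower in S-phase cells of both tumors, at 1004 against 1518 CPM in TKO1 and 204 against 329 CPM in TKO2, log2 ratios of -0.60 (-0.73 to -0.46) and -0.69 (-0.95 to -0.42). *Gadd45g* had 191 against 401 CPM and 396 against 527 CPM, ratios of -1.07 (-1.38 to -0.78) and -0.41 (-0.61 to -0.22). *Cdkn1a*, which encodes p21 and is a target of p53 in other settings, was instead higher, at 1013 against 555 CPM in TKO1 and 39.9 against 13.5 CPM in TKO2, ratios of 0.87 (0.71 to 1.02) and 1.56 (0.60 to 2.63). *Cdkn1c*, p57, had ratios of 0.75 (0.45 to 1.05) and 0.55 (0.25 to 0.85). *Cdkn2a*, whose products p16 and p19ARF these counts do not separate, had 789 against 440 CPM in TKO1 and 408 against 444 CPM in TKO2. Of 20 genes, 4 of 17 measured were at least 2-fold lower in TKO1, and in TKO2 1 of 14 was lower (*Gadd45b*, from 13 and 33 UMIs) and 1 higher.

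In TKO1, 19 of 25 glycolysis and hypoxia genes measured were lower in the S-phase cells by counting intervals, and 0 were higher. In TKO2, 8 of 19 were lower and 1 was higher. Of all genes measured, 753 of 6470 and 461 of 5435 were lower by the same intervals. *Aldoa*, a glycolytic enzyme, had 2557 CPM in S-phase cells and 4986 CPM in comparison cells of TKO1 and 1334 and 1829 CPM in TKO2, log2 ratios of -0.96 (-1.05 to -0.88) and -0.46 (-0.56 to -0.35). *Bnip3*, a hypoxia-induced gene of mitochondrial turnover, had 702 against 1387 CPM and 209 against 360.5 CPM, ratios of -0.98 (-1.14 to -0.83) and -0.78 (-1.04 to -0.53). *Ddit4*, which restrains mTOR under stress, had ratios of -1.02 (-1.497 to -0.58) and -0.84 (-1.32 to -0.36), and *Pdk1* of -1.30 (-2.03 to -0.64) and -0.68 (-1.32 to -0.06). *Ldha*, lactate dehydrogenase, was lower in TKO1, at -0.30 (-0.38 to -0.23), and at 0.05 (-0.03 to 0.13) in TKO2. The list's medians were -0.53 over 25 genes and -0.42 over 19 genes, with 3 genes at least 2-fold lower in TKO1 and 0 in TKO2. Against all other tumor cells the medians were -0.31 and -0.046. *Nupr1*, a stress-response gene, was among the genes with the lowest ratio in both tumors, at 570 against 1505 CPM in TKO1, a ratio of -1.40 (-1.57 to -1.23), and 14.0 against 69.8 CPM in TKO2, a ratio of -2.32 (-3.27 to -1.47).

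Macrophage, lymphoid and ciliated cell markers were lower in the S-phase cells than in the comparison cells, and their part in the ratios above was not tested beyond leaving out the cells named at the end of the paragraph. The 16 macrophage markers outside the gate summed to 28.2 CPM in S-phase and 178 CPM in comparison cells of TKO1 and to 19.9 and 417 CPM in TKO2, and *Cd74*, a gene of antigen presentation, was the most abundant measured in comparison cells, with 78 and 133 UMIs against 3 in the S-phase cells of each tumor. T, NK and B cell markers summed to 40.6 and 81.6 CPM in TKO1 and to 20.9 and 164 CPM in TKO2. In TKO1 most of that gap was *Ccl5*, a chemokine of lymphocytes, at 1.76 against 39.3 CPM, and with a minimum of 5 CPM the median log2 ratio of the list was -0.13 in place of -4.48. *Ptprc*, the marker of all leukocytes, had 0 UMIs in the S-phase cells of both tumors. In TKO1, 4 of 6 ciliated cell markers measured were at least 2-fold lower, with the list at 127 CPM in S-phase and 358 CPM in comparison cells. Club cell markers outside the gate summed to 72.3 and 112 CPM in TKO1 and to 8.97 and 30.4 CPM in TKO2, and alveolar markers to 31.8 and 48.3 CPM and to 1.99 and 6.76 CPM. Fibroblast markers summed to 17.6 and 15.7 CPM in TKO1 and to 4.99 and 15.8 CPM in TKO2, endothelial markers to 3.53 and 3.02 CPM and to 68.8 and 75.5 CPM, and neutrophil markers to 3.53 and 1.81 CPM and to 0.997 and 15.8 CPM. Of the endothelial sums in TKO2, *Egfl7* alone gave 68.8 and 71.0 CPM, and the other 6 genes had 0 UMIs in the S-phase cells. Of the 7 genes at least 2-fold lower in both tumors, *Cd74* and *Ccl5* are immune genes, and the others were *Nupr1*, *Dmtf1* and the histone genes *Hist1h1c*, *Hist1h4i* and *Hist1h2bc*. When cells that held 3 or more UMIs of the macrophage and lymphoid markers were left out, a choice made after seeing the data, 211 genes in place of 218 were at least 2-fold lower in TKO1 and 71 in place of 83 in TKO2, and the medians of the replication list were 1.08 and 0.69. No doublet caller was run, and the 2 libraries shared 22 barcodes, of which 0 were S-phase cells.

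The replication list had a median log2 ratio of 1.12 in TKO1 and 0.72 in TKO2, with 24 of 43 genes at least 2-fold higher in TKO1 and 14 of 50 in TKO2. The summed level in the S-phase cells was 6506 CPM in TKO1 and 6754 CPM in TKO2, and in the comparison cells 2856 and 4167 CPM. Comparison cells of TKO2 were the fewer and the deeper, and ribosomal protein genes, which took 11.0% of their UMIs in TKO1 and 24.9% in TKO2, set these libraries apart. In the S-phase cells that share was 9.86% in TKO1 and 22.4% in TKO2. The CPM sums of the tumors therefore rest on unlike totals, and neither likeness nor difference between tumors is read from them. With a total that left out gate, mitochondrial and ribosomal protein genes, the medians of the replication list were 1.11 and 0.67. With the comparison cells weighted to the depth of the S-phase cells, the medians were 1.14 and 0.83, and against all other tumor cells they were 0.82 and 0.38. For every weighted value, 0 S-phase cells of TKO1 and 36 of TKO2 lay outside the depth bins used for the weighting.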

How the data were processed

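Single-cell RNA-seq counts of 2 tumors were used. The authors deposited UMI counts per gene and barcode, not normalized, for 27998 genes, and the submitters' processing notes name Cell Ranger, Seurat and mm10 without versions. The library held 4514 barcodes and 5285038 UMIs in TKO1 and 3816 barcodes and 8291430 UMIs in TKO2, of which 3193 and 3568 barcodes had more than 500 genes. The *Scgb1a1* limit removed 110 and 14 of these and the macrophage limit 78 and 88. No mitochondrial filter, clustering or doublet caller was applied, and 10 barcodes were shared between the tumor cells of the libraries.

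Counts were summed per class and scaled to CPM with pandas 2.3.3, numpy 2.4.6 and scipy 1.17.1 under Python 3.11.15, and plotted with matplotlib 3.10.9. Intervals are exact Poisson, conditional binomial or Clopper-Pearson at 95% and cover counting error only. Ratios were read for genes with at least 20 CPM over the tumor cells of a tumor, the gate genes left out, and 2-fold was the threshold. For a gene with 0 UMIs in 1 class the ratio was taken against 3 counts. No test was made, because each tumor is 1 library and the classes were cut from the same counts. The calculation was tested on simulated data. Genes were named from the lists of the pathway, as the genes with the largest ratio in the same direction in both tumors, and as those differing most between tumors, except *Ccl5*, *Dmtf1* and *Hist1h4i*, named because 7 genes were lower in both. Members, lists and rules were chosen with earlier results of these data known. Thinning, other limits, depth weighting and other comparison cells were tried as alternatives, and 1 alternative, leaving out cells with immune UMIs, was added after seeing the data. A few genes of the lists are not described singly. Gene positions are from GENCODE M21, in which 27645 genes matched.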

Additional observations from a re-analysis of the deposited data

Results flagged for a closer look

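The 4 genes described here had log2 ratios of S-phase to comparison cells of opposite signs in the tumors, with counting intervals that left out 0 in both. The difference between the tumors was not tested. *Mif*, a cytokine and hypoxia target, had log2 ratios of -0.37 in TKO1 and 0.069 in TKO2, where the median of all genes measured was 0.05, so no difference is read for it there. *Eif4ebp1*, a brake on translation, had 0.83 and -0.39. *Sox4*, a transcription factor of neural and neuroendocrine cells, had -0.60 and 0.51. *Hsf1*, the heat shock factor, had -1.42 and 1.32.

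Barcodes outside the tumor cells also passed the S-phase and mitosis limits. In TKO1 they were 9 of the 110 barcodes set aside for *Scgb1a1*, 2 of the 78 set aside for macrophage genes and 20 of the 1321 with 500 genes or fewer. In TKO2 they were 2 of the 14 set aside for *Scgb1a1*, 4 of the 88 set aside for macrophage genes and 6 of the 248 with 500 genes or fewer. These cells were in none of the classes compared.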

How the results depend on the processing

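Each tumor was 1 library, so the precision rests on counted UMIs and says nothing of the spread between tumors, and low genes could not be placed. No paired analysis was possible because the results come from no test and each tumor is 1 library. The S-phase share of TKO1 was 18.8% with a limit of 2 S-phase UMIs, 6.29% with 4, 9.15% with 0 mitosis UMIs, 8.25% with cells of more than 200 genes and 7.17% at 1000 UMIs, and that of TKO2 was 20.02%, 7.99% and 7.93% for the first 3 of these and 8.10% at 1000 UMIs. Genes at least 2-fold lower in TKO1 numbered 96 with a limit of 2 UMIs, 413 with 4, 652 at 1000 UMIs, 806 with a minimum of 5 CPM and 51 with 50 CPM, and in TKO2 30, 129, 317, 541 and 13. Genes at least 2-fold higher in TKO1 numbered 528 at 1000 UMIs, 114 against all other tumor cells, 853 with 5 CPM and 132 with 50 CPM, and in TKO2 318, 6, 691 and 56, with 314 after depth weighting. Against all other tumor cells, which include those in mitosis, the median of the G2 and mitosis list was -0.64 in TKO1 and -1.36 in TKO2. The MYC list's median in TKO1, 0.64 over 7 genes, was 0.052 with a limit of 4 UMIs, 0.083 at 1000 UMIs, -0.043 with a minimum of 5 CPM and -0.039 with 50 CPM, and the cause was not tested. With 2 UMIs of the other 5 genes in place of 3, the log2 ratio of *Pcna* was 1.68 in TKO1 and 1.19 in TKO2. The median of the replication list stayed between 0.82 and 1.32 in TKO1 and between 0.38 and 0.97 in TKO2 over 12 alternatives, and that of the neuroendocrine list between -0.29 and -0.09 and between -0.06 and 0.21.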

Other observations

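In the ribosome biogenesis list 21 of 29 genes measured were higher by any size in TKO1 and 24 of 30 in TKO2, beside 50.3% and 55% of all genes, and 1 gene was at least 2-fold higher in TKO1 and 0 in TKO2. The list had median log2 ratios of 0.33 over 29 genes in TKO1 and 0.18 over 30 genes in TKO2. With cells thinned to 1000 UMIs the medians were 0.21 and -0.03, so that the sign turned in TKO2, and against all other tumor cells they were 0.22 and 0.01. *Dkc1*, of the pseudouridine synthase, had 47.6 against 23.6 CPM in TKO1, a ratio of 1.02 (0.25 to 1.76), and 130 against 103 CPM in TKO2, a ratio of 0.34 (-0.06 to 0.74). *Npm1*, the abundant nucleolar chaperone, had ratios of 0.17 (-0.02 to 0.35) and 0.20 (0.12 to 0.28). The stress list had medians of -0.30 over 19 genes and -0.04 over 23 genes, and its members went both ways. In TKO1, 3 genes were at least 2-fold higher and 2 lower, and in TKO2 0 and 1. Intervals lay above 0 for 4 genes and below 0 for 6 in TKO1, and for 4 and 5 in TKO2. *Ddit3*, the stress factor CHOP, was lower in both tumors, at 54.7 against 112 CPM in TKO1 and 27.9 against 49.6 CPM in TKO2, ratios of -1.04 (-1.64 to -0.49) and -0.83 (-1.57 to -0.11). *Atf4*, which acts upstream of it, had ratios of -0.25 (-0.56 to 0.06) and -0.36 (-0.67 to -0.05), and *Xbp1*, of the unfolded protein response, of -0.74 (-1.13 to -0.36) and -0.29 (-0.56 to -0.02).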
